A study of Mus musculus with 20 samples.

Results

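The 37 genes described here lie on mouse chromosome 16 just outside a duplicated segment. By the named ends of the alleles they are in 2 copies in every heart of the study, which was not measured here. They were chosen by position: protein-coding genes of chromosome 16 that start between 86 Mb and the first duplicated gene, Setd4, or beyond the last one, Zbtb21 (GRCm39). A gene also needed a normalised read count of at least 10 in 5 or more of all 20 libraries, and Rcan1, Mrps6 and Atp5po were left out. Of the 85 protein-coding genes in these stretches 37 met the rule, 44 were below the limit on low values and 4 were not in the table used. The 37 were among 15348 genes tested and 48795 genes in the table. On the proximal side, before Setd4, lie 36 of the genes. The remaining one, B230307C23Rik, lies on the distal side, beyond Zbtb21.

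Whole hearts from mouse embryos at E13.5 were profiled by RNA sequencing of poly(A) RNA. Dp3Tyb, the allele Dp(16Mir802-Zbtb21)3TybEmcf, is a germline duplication that puts 39 protein-coding genes from Setd4 to Zbtb21 in 3 copies. Ts1Rhr, the allele Dp(16Cbr1-Fam3b)1Rhr, duplicates a shorter stretch inside it. The 4 groups were Dp3Tyb hearts, their wild-type (WT) littermates, Ts1Rhr hearts and their WT littermates, with 5 hearts each. The labels name no treatment. Heart defects are named in the labels of all 5 Dp3Tyb hearts and of 2 of the 5 Ts1Rhr hearts, replicates 1 and 2. The labels number no replicates, so the numbers used here follow the order of the sample list, only name a heart and pair none. A difference between groups in a whole heart can come from fewer cells of a type or from less RNA per cell, which cannot be told apart in bulk RNA.

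Genes in an extra copy are commonly transcribed in proportion to their copy number. An engineered duplication also joins stretches of DNA that are normally far apart, so a gene just past its end can meet enhancers and chromatin domains that it does not normally meet. The neighbours of the segment include genes that are well known in Down syndrome research because they are in 3 copies in people with trisomy 21: the receptors for interferons and interleukin-10, superoxide dismutase 1, the transcription factor RUNX1, and the potassium channel subunits KCNE1 and KCNE2. In Dp3Tyb and Ts1Rhr they lie outside the named ends, so their levels ask whether the change in dosage reached past the ends of the duplication.

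The promoters of the genes nearest the segment are shown first, since a gene beside a duplication end could respond through its own start site. Each sequence runs 5′ to 3′ from 250 bases before to 50 bases after a RefSeq transcript start (GRCm38.p6, whose coordinates differ from the GRCm39 positions used for the genes), and capitals mark the CCAAT box, CCAAT or its reverse complement ATTGG. Runx1 has a distal and a proximal promoter, and the distal one is the start nearer to the segment. Ifnar1 is shown as a gene farther away whose level varied least.
B230307C23Rik, chr16:97997086-97997385, plus strand: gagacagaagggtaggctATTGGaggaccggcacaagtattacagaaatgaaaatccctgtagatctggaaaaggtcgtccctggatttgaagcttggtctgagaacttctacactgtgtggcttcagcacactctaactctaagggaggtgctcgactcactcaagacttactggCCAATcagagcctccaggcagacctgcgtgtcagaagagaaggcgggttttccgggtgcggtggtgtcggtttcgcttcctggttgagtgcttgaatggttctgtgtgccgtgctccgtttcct
Runx1 distal promoter, chr16:92826025-92826324, minus strand: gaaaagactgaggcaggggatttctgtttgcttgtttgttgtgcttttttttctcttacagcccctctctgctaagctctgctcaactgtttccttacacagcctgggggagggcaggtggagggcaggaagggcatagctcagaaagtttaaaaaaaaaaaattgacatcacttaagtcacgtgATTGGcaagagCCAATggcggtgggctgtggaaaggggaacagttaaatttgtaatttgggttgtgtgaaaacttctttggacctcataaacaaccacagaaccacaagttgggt
Runx1 proximal promoter, chr16:92697280-92697579, minus strand: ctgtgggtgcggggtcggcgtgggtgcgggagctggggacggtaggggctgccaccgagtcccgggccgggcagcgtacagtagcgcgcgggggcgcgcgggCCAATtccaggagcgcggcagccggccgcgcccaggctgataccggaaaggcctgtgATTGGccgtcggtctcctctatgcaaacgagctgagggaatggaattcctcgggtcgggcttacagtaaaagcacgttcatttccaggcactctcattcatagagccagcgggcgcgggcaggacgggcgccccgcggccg
Ifnar1, chr16:91484965-91485264, plus strand: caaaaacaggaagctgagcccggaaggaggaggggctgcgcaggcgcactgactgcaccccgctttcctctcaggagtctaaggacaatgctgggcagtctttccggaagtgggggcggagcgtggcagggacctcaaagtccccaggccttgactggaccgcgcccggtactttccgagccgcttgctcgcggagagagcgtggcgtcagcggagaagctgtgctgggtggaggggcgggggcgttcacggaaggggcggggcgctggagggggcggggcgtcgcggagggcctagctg

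The distal Runx1 promoter holds 2 CG dinucleotides in 300 bases, the proximal one 35, that of B230307C23Rik 11 and that of Ifnar1 26. B230307C23Rik and both Runx1 promoters hold 2 CCAAT boxes each, and the Ifnar1 promoter holds none on either strand. Among 32851 mouse promoters of this length 37.4% hold at least 1 such box. RefSeq promoters were matched for 30 of the 37 genes, and 12 of their 35 promoters (34.3%) held the box. The motif ACCACA or its reverse complement TGTGGT, the core that RUNX proteins bind, is present in 16.8% of all promoters and stands 2 times in the distal Runx1 promoter, on the strand printed. These are matches of letters and no binding was measured.

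Libraries held between 6.60 and 19.6 M reads (M, mega), and each group had 3 female and 2 male hearts. Sex was inferred from reads of Xist against the summed reads of Ddx3y, Eif2s3y, Kdm5d and Uty. The 9 cardiomyocyte markers summed to between 307069 and 518467 normalised reads in every library, so the defining markers of the labelled tissue were present. Mitochondrially encoded transcripts took 4.85% to 19.5% of reads and over 10% in 7 libraries, spread over all 4 groups. Markers of lung bud and foregut, tissue that lies beside the heart, summed to between 6.85 and 614 and varied within each group. The genes in 3 copies showed the size of a change in copy number on this scale. In Dp3Tyb hearts the 21 tested genes that are in 3 copies in both strains had a median log2 fold change of 0.50, and in Ts1Rhr hearts the same genes had a median of 0.51.

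None of the 37 neighbours passed the test in either strain. A log2 fold change here is a difference of mean log2(normalised read count + 1) between mutant and WT hearts, tested with limma over all 15348 genes, and a call is an adjusted p under 0.05. In Dp3Tyb hearts 0 of 37 were called, where 0.0521% of all genes were, and 0 of 37 had an unadjusted p under 0.05, against 2.73% of all genes. In Ts1Rhr hearts 0 of 37 were called, where 0.0261% of all genes were. B230307C23Rik was the 1 neighbour with an unadjusted p under 0.05 in Ts1Rhr, against 5.51% of all genes. DESeq2 and edgeR on the recovered reads also called 0 of the 37 in both strains, with 0.209% and 0.0586% of all genes called in Dp3Tyb and 0.163% and 0.0261% in Ts1Rhr. Of the 21 genes in 3 copies in both strains, limma called only 4 in Dp3Tyb and 4 in Ts1Rhr. Most genes in an extra copy were thus missed with 5 hearts per group, so a gene that was not called can still have changed.

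The neighbours as a group had a median log2 fold change of -0.016 in Dp3Tyb and -0.054 in Ts1Rhr, beside -0.00092 and -0.0013 over all genes tested. In Dp3Tyb 14 of the 37 were above 0 (49.6% of all genes were), and in Ts1Rhr 13 were (49.7% of all genes were). The 358 tested protein-coding genes of chromosome 16 that start before 86 Mb had medians of -0.0087 and -0.012. These medians moved with single hearts: leaving out 1 heart at a time, they lay between -0.044 (without Dp3Tyb replicate 5) and -0.012 in Dp3Tyb and between -0.055 and -0.018 (without Ts1Rhr replicate 1) in Ts1Rhr. The Ts1Rhr median was 0.022 over the 16 members that overlap no other gene in the table used, though some of these overlap other annotated genes.

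**Figure D1:**
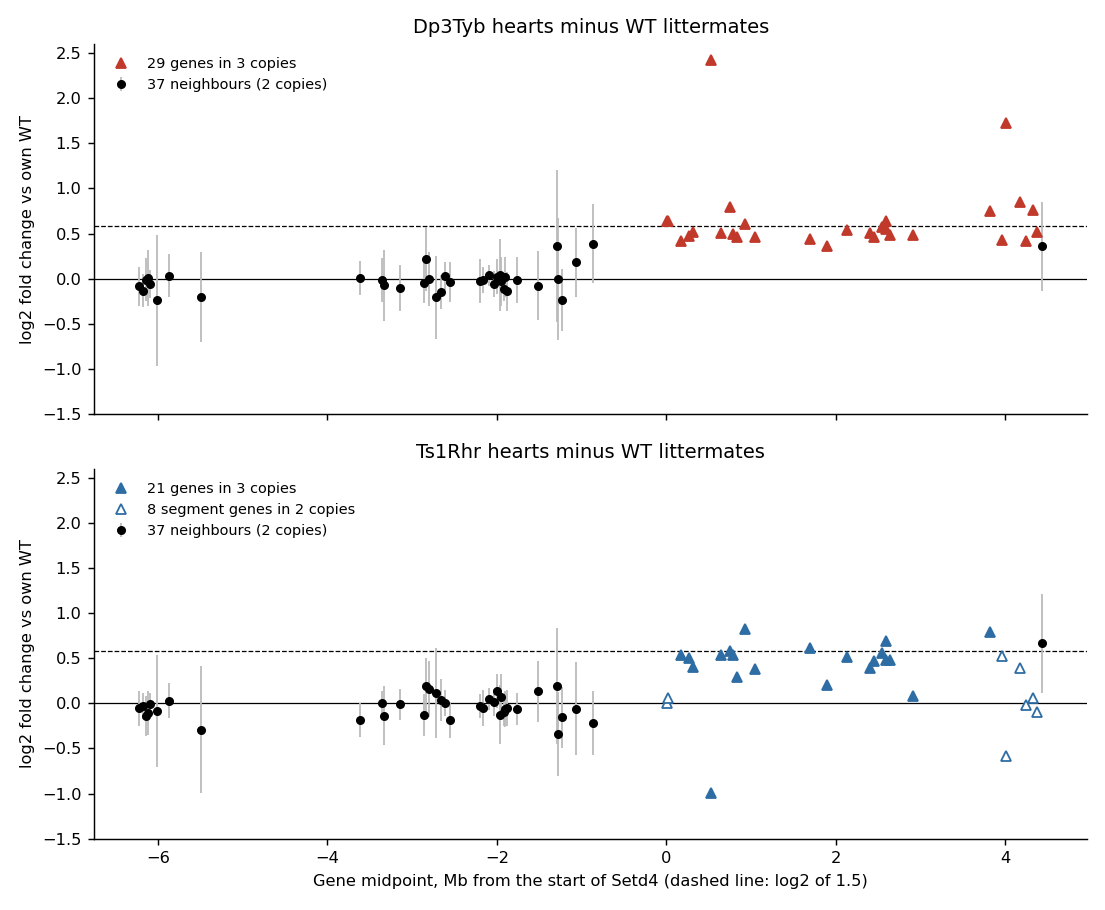
Log2 fold change against own WT littermates (vertical axis) by the gene's midpoint in Mb from the start of Setd4 (horizontal axis), for Dp3Tyb (upper panel) and Ts1Rhr (lower panel). Black points are the 37 neighbours with the 95% interval of limma as bars, filled triangles are genes in 3 copies, open triangles are genes of the segment that are in 2 copies in Ts1Rhr, and the dashed line marks the log2 of 1.5. The neighbours lie around 0 on the proximal side, the genes in 3 copies lie mostly around the dashed line (medians 0.50 and 0.51 for the genes shared by both strains), and the black point at the far right is B230307C23Rik.

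The outermost genes of the segment were compared between strains first, since they differ in copy number. Setd4, the first duplicated gene in Dp3Tyb (chr16:93380340-93401219), had a log2 fold change of 0.64 in Dp3Tyb and -0.0011 in Ts1Rhr, where it is in 2 copies. Zbtb21, the last one (chr16:97744557-97763836), had 0.52 in Dp3Tyb and -0.091 in Ts1Rhr. Runx1 is the next protein-coding gene before Setd4, since 0 others lie between them. The 8 genes at both ends of the segment that are in 3 copies in Dp3Tyb only are thus neighbours of the Ts1Rhr duplication, and their median was 0.64 in Dp3Tyb and 0.027 in Ts1Rhr, where 0 of 8 were called by limma and 0 had an unadjusted p under 0.05. They varied in Ts1Rhr: Mx2, the first tested protein-coding gene past Fam3b, was at 0.52 ± 0.32, Ripk4 at 0.39 ± 0.23 and Tmprss2 at -0.59 ± 0.77, and the other 5 lay between -0.091 and 0.059. The upper bound of the 95% interval lay below 0.585, the log2 of 1.5, for those 5 and not for the 3 named.

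A gene in 3 copies in place of 2 would gain log2 1.5, or 0.585. The upper bound of limma's 95% interval, unadjusted, was below that size for 33 of 37 neighbours in Dp3Tyb, against 77.4% of all genes. The exceptions were Kcne2, Smim11, Runx1 and B230307C23Rik. In Ts1Rhr it was below for 34 of 37, against 82.5% of all genes, and the exceptions were Eva1c, Kcne2 and B230307C23Rik. The 3 genes Kcne2, Eva1c and Son are named here and below because their values stood out, outside the naming rule. Of the 21 genes in 3 copies in both strains, 1 in Dp3Tyb and 3 in Ts1Rhr had an upper bound below 0.585.

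Because the neighbours lie outside the named ends of both duplications, both duplications were also compared with WT together, with the cohort as a term. The 20 hearts narrowed the intervals. In this fit 0 of 37 neighbours were called by limma (0.248% of all genes were), 0 by DESeq2 (1.11% were) and 0 by edgeR (0.261% were). Limma called 14 of the 21 genes in 3 copies in both strains here. An unadjusted p under 0.05 was reached by 2 neighbours, B230307C23Rik and Son, against 8.51% of all genes. The median was -0.038 (-0.046 to -0.022 on leaving out 1 heart, the last without WT replicate 5 of the Dp3Tyb cohort), beside 0.0024 over all genes, and 12 of 37 were above 0 (50.8% of all genes). The upper bound lay below 0.585 for 35 of 37 genes (88.2% of all genes), all but Kcne2 and B230307C23Rik, which were among the lowest in reads.

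**Figure D2:**
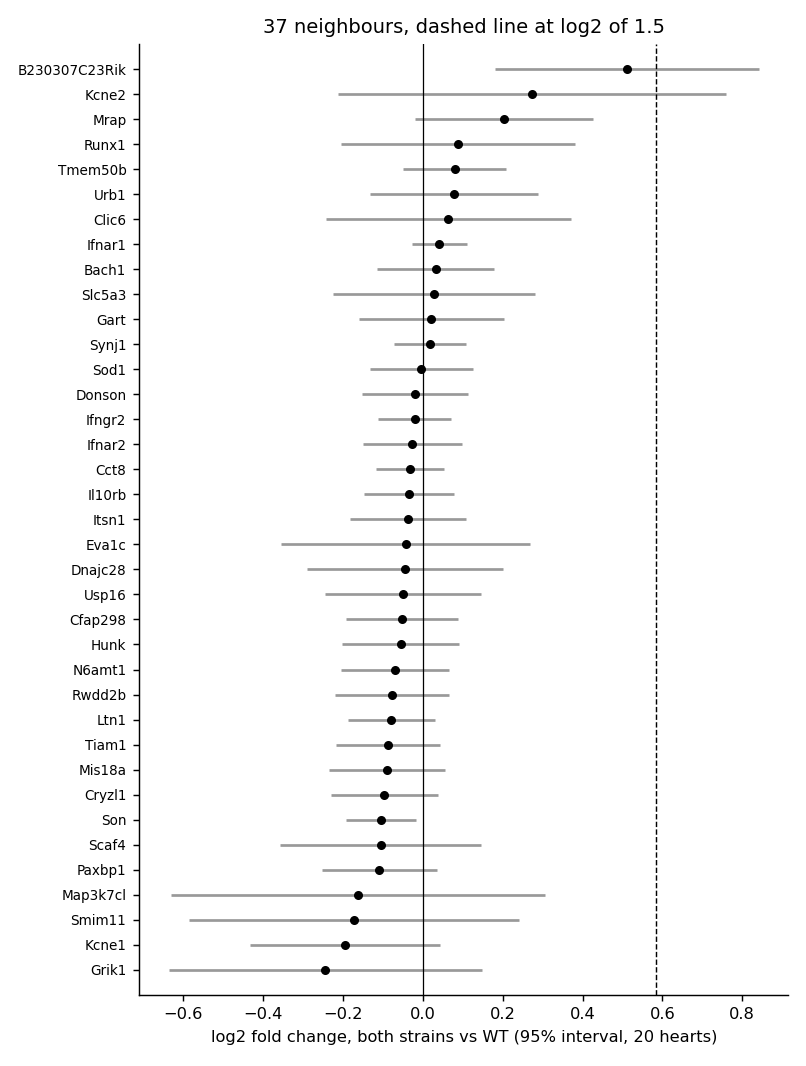
Log2 fold change of each of the 37 neighbours, both strains against WT over 20 hearts (horizontal axis), with limma's 95% interval, in order of the estimate. The solid line is 0 and the dashed line the log2 of 1.5. In 35 of 37 genes the interval ends below the dashed line. B230307C23Rik is at the top with 0.51.

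Levels of the neighbours covered a wide range in WT hearts. Per kb of merged exons, Cct8 was the most abundant with 910 normalised reads per kb, followed by Son with 532, Ifngr2 with 294, Sod1 with 226 and Kcne1 with 151. The lowest were Runx1 with 4.32, Eva1c with 3.71, Grik1 with 2.33 and B230307C23Rik with 0.906. Of the 44 genes below the limit on low values 36 were at 0 in every library, and 34 of these are keratin-associated protein genes, structural proteins of hair that are clustered in this stretch. They gave no information on dosage.

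B230307C23Rik (chr16:97798250-97840399, plus strand) is the only neighbour tested on the distal side, 34.4 kb past the end of Zbtb21. Its product has no role that is stated here. Normalised read counts were 10.4, 15.2, 15.5, 20.2 and 11.7 in WT littermates of Dp3Tyb and 21.3, 15.6, 17.0, 23.2 and 16.8 in Dp3Tyb hearts. All 5 Dp3Tyb hearts were above the WT mean of 14.6 ± 3.80 (SD), but the groups overlapped. The log2 fold change was 0.36 ± 0.22 (SE; exact permutation p = 0.0873).

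In the other cohort B230307C23Rik stood at 15.1, 11.9, 17.0, 7.66 and 10.5 in WT hearts and at 18.0, 25.4, 22.2, 16.3 and 17.5 in Ts1Rhr hearts. Again all 5 mutant hearts were above the WT mean, and only the highest WT heart reached into the range of Ts1Rhr. The log2 fold change was 0.66 ± 0.25 (exact permutation p = 0.0159, where the smallest possible is 0.00794; limma adjusted p = 0.797), and 0.38 with weights for libraries. Both strains together gave 0.51 ± 0.16, with a limma p of 0.0042 before and 0.253 after adjustment over all genes.

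The higher mean of B230307C23Rik was thus not past the threshold after adjustment in any of these comparisons, and it rests on few reads, between 4 and 32 in each library. Its interval in both strains, 0.18 to 0.84, holds 0.585. In Ts1Rhr the gene is 482 kb from the last duplicated gene, Fam3b, whereas in Dp3Tyb it is next to the end, and the difference between strains was -0.30 ± 0.32, less than its error. The 6 tested protein-coding genes between Fam3b and B230307C23Rik, given above, lay on both sides of 0 in Ts1Rhr, with Mx2 at 0.52, Ripk4 at 0.39, Tmprss2 at -0.59 and Zbtb21 at -0.091. Without the libraries over 10% mitochondrial reads the change was 0.37 in both strains and 0.44 in Ts1Rhr, neither of which reached an unadjusted p of 0.05 in limma. A noncoding gene on the opposite strand, C030010L15Rik, overlaps it and had 0 to 4 reads in each library. A protein-coding gene on that strand, A630089N07Rik (chr16:97802510-97883698), overlaps it as well and was not in the table used. Since the use of strand is not given, reads of A630089N07Rik could be in these counts, which was not tested. The copy number of B230307C23Rik was not measured, and the exact end of the Dp3Tyb duplication past Zbtb21 is not given in the sources used here.

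Runx1 (chr16:92398354-92623037, minus strand), a transcription factor needed for the first blood stem cells, is the nearest proximal neighbour, 757 kb from Setd4. The engineered end lies between Runx1 and Mir802, so the distance to the end itself is shorter. Normalised read counts were 60.3, 44.9, 55.6, 30.7 and 41.1 in WT littermates of Dp3Tyb and 55.3, 54.0, 50.0, 75.3 and 67.1 in Dp3Tyb. All 5 Dp3Tyb hearts exceeded the WT mean and the ranges overlapped. The log2 fold change was 0.39 ± 0.20 (exact permutation p = 0.0952), and 0.25 without WT replicate 4.

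Runx1 had a lower mean in Ts1Rhr, with 65.9, 49.9, 66.3, 61.2 and 72.0 in WT and 39.5, 56.6, 50.6, 60.1 and 65.8 in Ts1Rhr hearts. Only 1 of 5 Ts1Rhr hearts was above the WT mean. This change was -0.22 ± 0.16 (exact permutation p = 0.190; limma adjusted p = 0.797), and -0.11 without Ts1Rhr replicate 1. Runx1 had the lowest p of the neighbours for a difference between the strains, 0.61 ± 0.25 with a limma p of 0.0273 that did not hold after adjustment. In that contrast 0 of 37 neighbours were called (limma, 0.0130% of all genes; DESeq2, 0.0195%; edgeR, 0.0130%; 0 of 37 by each), and Runx1 was the 1 neighbour with an unadjusted p under 0.05 (1.52% of all genes). Of the 37 neighbours 18 had a difference above 0 (50.4% of all genes), and the upper bound was below 0.585 for 30 (69.3%).

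Of the 9 marker lists, those of lung and foregut and of neural crest and neural cells had median differences of the same sign as Runx1 in both strains. The 6 of 7 lung and foregut markers that could be tested had a median log2 fold change of 1.89 in Dp3Tyb and -1.70 in Ts1Rhr, with 0 called in either. Their summed level lay between 6.85 and 478 in WT littermates of Dp3Tyb, 83.4 and 614 in Dp3Tyb, 159 and 501 in WT littermates of Ts1Rhr, and 11.5 and 406 in Ts1Rhr. Sftpc was listed at 0 in 15 libraries and Nkx2-1 in 4. The 4 neural crest and neural markers had medians of 0.43 and -0.19 with 0 called, and summed to between 188 and 345, 220 and 377, 200 and 309, and 177 and 346 in the same order of groups. The 5 macrophage markers, of a blood lineage, had positive medians in both strains, 0.25 and 0.31, with 0 called. With the log2 of the summed level as a term, an alternative chosen after seeing the data, the Runx1 change was 0.17 in Dp3Tyb, -0.023 in Ts1Rhr and 0.19 between strains. The last no longer had an unadjusted p under 0.05 in limma. No such term was fitted for the other lists, and the part of lung and foregut, neural or macrophage cells in the Runx1 values was not tested. The partner genes of RUNX1 that were tested, Cbfb and Runx2, had 0 calls: Cbfb, which encodes the shared beta subunit, was at 0.065 ± 0.060 in Dp3Tyb and -0.017 ± 0.064 in Ts1Rhr.

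Clic6, a chloride intracellular channel family gene, and Kcne1, the beta subunit of the slow cardiac potassium current with KCNQ1, follow next toward the centromere. Clic6 was at 47.5, 46.4, 52.6, 36.6 and 32.3 in WT littermates of Dp3Tyb, at 36.6, 51.6, 49.2, 53.6 and 53.1 in Dp3Tyb, at 35.6, 36.9, 43.0, 34.5 and 55.0 in WT littermates of Ts1Rhr and at 34.7, 30.3, 26.6, 52.4 and 59.2 in Ts1Rhr. The groups overlapped throughout. The log2 fold change was 0.18 ± 0.17 for Dp3Tyb (exact permutation p = 0.214) and -0.058 ± 0.24 for Ts1Rhr (exact permutation p = 0.833). The former was 0.089 without WT replicate 5 and 0.056 without the libraries over 10% mitochondrial reads, and the latter turned to 0.24 with weights for libraries.

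Kcne1 was at 518, 576, 511, 574 and 749 in WT littermates of Dp3Tyb and at 382, 617, 590, 397 and 526 in Dp3Tyb. In the Ts1Rhr cohort it was at 525, 432, 433, 630 and 789 in WT and at 562, 436, 539, 448 and 479 in Ts1Rhr. The changes were -0.23 ± 0.16 and -0.16 ± 0.16 with overlapping groups. Without WT replicate 5 of each cohort, the highest of its group, they were -0.14 and -0.023. On all hearts both strains together gave -0.20 ± 0.11 (limma adjusted p = 0.693). Over the alternatives other than leaving out 1 heart this ran from -0.20 to -0.050. The 4 listed partner genes, Kcnq1, Kcnh2, Kcne3 and Kcne4, had 0 calls by limma and 0 unadjusted p under 0.05, with medians of -0.13 in Dp3Tyb and 0.0046 in Ts1Rhr. Kcne2, a related subunit, had only 1 to 20 reads in each library, and its interval in both strains, -0.21 to 0.76, left its change unresolved at this depth.

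**Figure D3:**
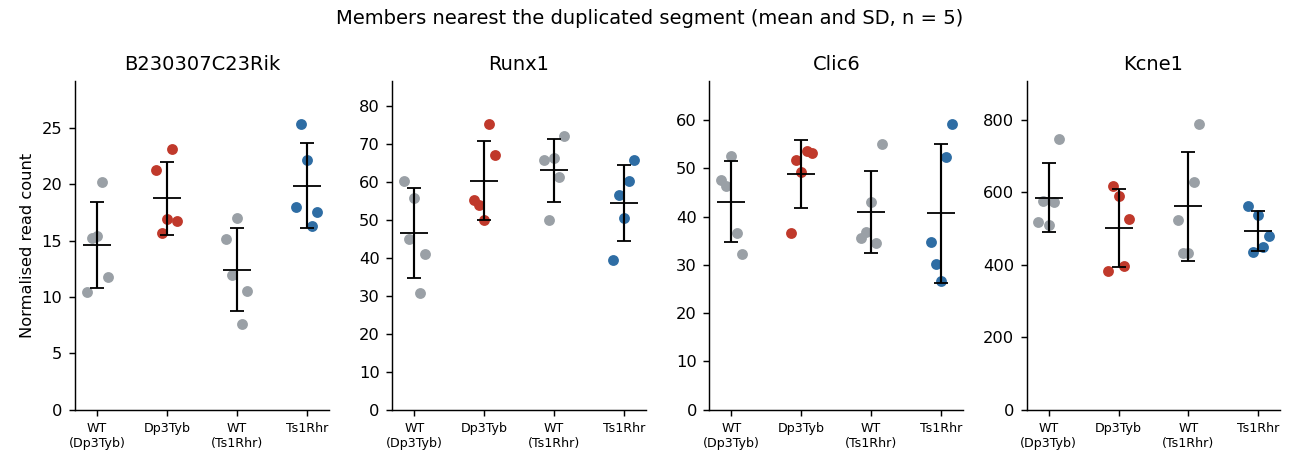
Normalised read counts (vertical axis, from 0) of B230307C23Rik, Runx1, Clic6 and Kcne1 in each of 20 hearts by group (horizontal axis), with the mean and SD of 5 hearts as bars. B230307C23Rik is higher on average in both strains (18.8 against 14.6 in Dp3Tyb, 19.9 against 12.4 in Ts1Rhr) with overlapping points, and Runx1 is higher in Dp3Tyb and lower in Ts1Rhr, also with overlap.

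The cytokine receptor genes lie between 2.02 and 2.18 Mb from Setd4. Ifnar1 and Ifnar2 encode the chains of the type I interferon receptor, Ifngr2 a chain of the interferon gamma receptor, and Il10rb a chain shared by the interleukin-10 and type III interferon receptors. None of the 4 passed the test. Their log2 fold changes lay between -0.057 and 0.037 in Dp3Tyb and between -0.055 and 0.045 in Ts1Rhr. In both strains together the highest upper bound among them was 0.11, far under the 0.585 of an extra copy.

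Ifnar1 (chr16:91281942-91305789) had normalised read counts of 1172, 1141, 1220, 1182 and 1163 in WT littermates of Dp3Tyb and of 1201, 1205, 1123, 1285 and 1222 in Dp3Tyb. It had 1113, 1140, 1183, 1187 and 1152 in WT littermates of Ts1Rhr and 1217, 1182, 1091, 1252 and 1222 in Ts1Rhr. The coefficient of variation over 10 WT hearts was 2.59%, the least among the neighbours. Its changes of 0.037 ± 0.055 and 0.045 ± 0.056 were smaller than their errors (exact permutation p = 0.317 and 0.262).

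Ifnar2 was at 468, 367, 398, 357 and 531 in WT and 387, 398, 434, 409 and 431 in Dp3Tyb, and at 402, 425, 442, 434 and 446 in WT and 413, 427, 409, 422 and 440 in Ts1Rhr. The mutant hearts lay inside the WT range in both cohorts. Ifngr2 was at 1313, 1371, 1264, 1334 and 1462 in the first WT group, 1278, 1373, 1359, 1172 and 1305 in Dp3Tyb, 1211, 1276, 1221, 1344 and 1482 in the second WT group, and 1395, 1253, 1376, 1311 and 1253 in Ts1Rhr.

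Il10rb was at 463, 524, 468, 461 and 514 in WT and 490, 507, 479, 449 and 476 in Dp3Tyb, and at 417, 425, 481, 492 and 595 in WT and 462, 449, 472, 468 and 450 in Ts1Rhr. The groups overlapped for each of the 4 receptor genes. An annotated readthrough gene, Gm21970, overlaps Ifnar2 and Il10rb on the same strand, so reads can be shared between them. Of the 25 listed signalling partners and interferon targets 24 were tested. Their median log2 fold change was 0.11 in Dp3Tyb and 0.17 in Ts1Rhr, with 15 and 21 of 24 above 0, where 49.6% and 49.7% of all genes were. By limma 0 were called in either strain, and 0 and 3 of the 24 had an unadjusted p under 0.05, against 2.73% and 5.51% of all genes. The 5 macrophage markers had positive medians as well, 0.25 and 0.31 with 0 called, and summed to between 587 and 1019 in WT littermates of Dp3Tyb, 860 and 1146 in Dp3Tyb, 719 and 936 in WT littermates of Ts1Rhr, and 683 and 1174 in Ts1Rhr. Their part in the medians of the partner genes was not tested.

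**Figure D4:**
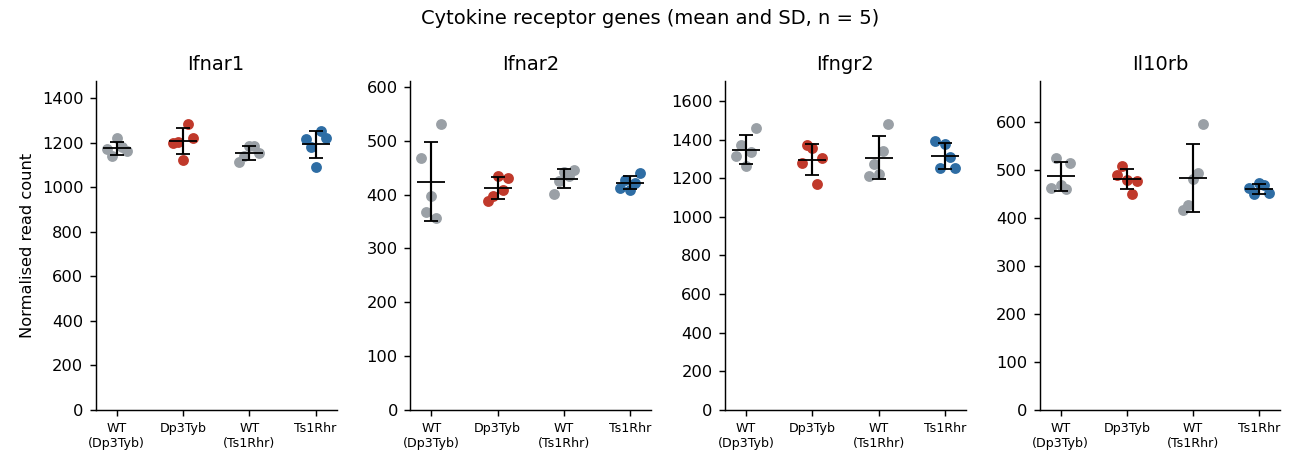
Normalised read counts (vertical axis, from 0) of Ifnar1, Ifnar2, Ifngr2 and Il10rb in each of 20 hearts by group (horizontal axis), with the mean and SD of 5 hearts. The points of all 4 groups overlap in each panel, for example at means of 1176, 1207, 1155 and 1193 for Ifnar1.

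Smim11, a small membrane protein gene 1270 kb from Setd4, had the highest coefficient of variation over the 10 WT hearts, 45.4%. It was at 141, 168, 162, 167 and 452 in WT littermates of Dp3Tyb and at 167, 154, 186, 190 and 315 in Dp3Tyb, with 1 high heart in each group. In the Ts1Rhr cohort it was at 267, 234, 232, 452 and 227 in WT and at 284, 280, 152, 200 and 189 in Ts1Rhr. The highest hearts of the first 3 groups were those with the highest mitochondrial read share of their group. Log2 fold changes were -0.0054 ± 0.31 in Dp3Tyb and -0.34 ± 0.22 in Ts1Rhr, the latter the lowest of the neighbours in that strain (exact permutation p = 0.984 and 0.254). Without the 7 libraries over 10% mitochondrial reads the Dp3Tyb value was 0.12. The Ts1Rhr value was -0.16 without WT replicate 4 and -0.15 with the mitochondrial share as a term.

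Map3k7cl, a gene of little-known function named for its likeness to the kinase MAP3K7, and Grik1, a kainate receptor subunit of glutamate signalling, were also among the lowest: Map3k7cl and Kcne1 in Dp3Tyb, and Smim11 and Grik1 in Ts1Rhr. Map3k7cl was at 93.9, 49.5, 64.9, 35.1 and 91.0 in WT and 42.6, 51.6, 30.5, 78.2 and 79.7 in Dp3Tyb, and at 85.3, 30.4, 52.8, 70.8 and 75.2 in WT and 44.3, 62.5, 40.0, 55.0 and 88.4 in Ts1Rhr. Its changes were -0.24 ± 0.33 and -0.087 ± 0.29, smaller than their errors. Leaving out 1 heart moved the former between -0.44 (without WT replicate 4) and -0.042 (without Dp3Tyb replicate 3), and with the lung marker term the latter turned to 0.29.

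Grik1 stayed between 5.33 and 20.6 in all hearts. It was at 17.4, 15.2, 12.4, 18.7 and 20.6 in WT and 11.1, 13.3, 17.0, 12.3 and 19.6 in Dp3Tyb, and at 19.4, 10.8, 17.0, 15.3 and 9.70 in WT and 10.8, 11.7, 5.33, 15.5 and 16.8 in Ts1Rhr, with overlap in both cohorts. Its values of -0.20 ± 0.23 and -0.29 ± 0.32 were smaller than their errors, and the latter was -0.052 without Ts1Rhr replicate 3 and turned to 0.13 with the lung marker term. Mrap, the accessory protein of the adrenocorticotropic hormone receptor, was at 63.8, 84.5, 96.6, 102 and 117 in WT and 97.9, 128, 105, 94.8 and 106 in Dp3Tyb, and at 106, 110, 96.7, 93.8 and 94.6 in WT and 137, 129, 133, 98.8 and 83.3 in Ts1Rhr. It was at 0.22 ± 0.16 and 0.19 ± 0.15, among the highest of the neighbours in both strains, and at 0.091 in Dp3Tyb without WT replicate 1. With the lung marker term the Ts1Rhr value was -0.0031. Both together gave 0.20 ± 0.11 (limma adjusted p = 0.655).

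Genes of RNA processing and ribosome making were 4: Son, a large splicing cofactor of nuclear speckles, Scaf4, which prevents early transcript termination, Paxbp1 and Urb1, a factor of ribosome assembly. Their medians were -0.055 in Dp3Tyb and -0.12 in Ts1Rhr, and 0 were called by limma. Son was between 7380 and 8432 in Dp3Tyb, where its WT hearts were between 8008 and 9075, and between 7430 and 8034 in Ts1Rhr, where its WT hearts were between 7230 and 9012. All 5 mutant hearts of both strains were below their WT mean. Both strains together gave -0.11 ± 0.042, a small change with a limma p of 0.0204 before and 0.471 after adjustment. It was called (adjusted p = 0.0293) in 1 alternative, limma with weights for libraries. Gart and Donson overlap Son on the opposite strand.

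Protein folding, quality control and modification was represented by Cct8, a subunit of the TRiC chaperonin that folds actin and tubulin, Ltn1, the ubiquitin ligase of stalled ribosomes, Usp16, a histone deubiquitinase, N6amt1, a methyltransferase, Dnajc28 and Rwdd2b, whose role is not stated here. Medians were -0.034 and -0.081, with changes between -0.13 and 0.041 in Dp3Tyb and between -0.14 and -0.0075 in Ts1Rhr. Cct8 was at -0.057 ± 0.069 and -0.0075 ± 0.059. The 7 other TRiC subunits, which are encoded elsewhere, had medians of -0.067 and -0.023 with 0 called by limma and 0 at an unadjusted p under 0.05 in both strains.

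Endocytosis and signalling scaffolds were Synj1, the lipid phosphatase that uncoats clathrin vesicles, Itsn1, an endocytic scaffold, Tiam1, an activator of RAC1, Hunk, a kinase, and Eva1c. Their changes lay between -0.21 and 0.035 in Dp3Tyb and between -0.18 and 0.12 in Ts1Rhr. Synj1 was at 0.035 ± 0.070 and -0.00043 ± 0.066. The 19 listed clathrin endocytosis genes had medians of 0.030 and -0.010 with 0 called by limma and 0 at an unadjusted p under 0.05 in both strains. Eva1c had between 9 and 39 reads in each library.

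Gart, a purine synthesis enzyme with 3 activities, Donson, a factor of replication origin firing, and Mis18a, which readies centromeres for new CENP-A, lay between -0.047 and 0.024 in Dp3Tyb and between -0.13 and 0.070 in Ts1Rhr. Gart was at -0.028 ± 0.12 and 0.070 ± 0.12. The 5 other enzymes of de novo purine synthesis had medians of -0.086 and 0.0028, with 0 called by limma and 0 and 1 at an unadjusted p under 0.05. Sod1, the cytosolic superoxide dismutase, was at -0.012 ± 0.11 and 0.0036 ± 0.061. Its range over all hearts was 1682 to 2361, and 9 tested genes of superoxide and peroxide removal had medians of -0.0066 and 0.11 with 0 called by limma and 0 at an unadjusted p under 0.05.

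The remaining genes did not pass the test either. Bach1, a repressor of heme oxygenase genes, was at 0.036 ± 0.11 and 0.029 ± 0.090, Slc5a3, a myo-inositol transporter, at -0.079 ± 0.17 and 0.14 ± 0.16, and Tmem50b at 0.021 ± 0.088 and 0.14 ± 0.088. Cryzl1 was at -0.14 ± 0.097 and -0.054 ± 0.092. Cfap298, a cilium gene, was at -0.15 ± 0.085 and 0.042 ± 0.11, and its Dp3Tyb change had an exact permutation p of 0.0159, one of 2 neighbours under 0.05 there (4.10% of all genes were), with Son at 0.0397. In Ts1Rhr 1 of 37 was, B230307C23Rik (5.94% of all genes were). Those values are not adjusted for 37 genes, and the 5 and 5 hearts overlapped. In each strain 0 of 37 neighbours had groups that did not overlap, where 0.945% of all genes in Dp3Tyb and 1.11% in Ts1Rhr did, and 12 of the 21 genes in 3 copies in both strains did in each strain.

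Order along the chromosome was then examined, since an effect of the ends could fade with distance, though it need not. In Dp3Tyb the median log2 fold change was 0.37 for the 2 neighbours within 1 Mb of the segment (Runx1 and B230307C23Rik), -0.0088 for 12 at 1 to 2 Mb, -0.028 for 11 at 2 to 3 Mb, -0.043 for 4 at 3 to 5 Mb and -0.071 for 8 farther away. In Ts1Rhr the same bins had 0.22, -0.060, 0.014, -0.073 and -0.071. Distance was taken from Setd4 or Zbtb21, the outermost genes duplicated in Dp3Tyb, in both strains. The 8 genes that lie nearer the ends of the Ts1Rhr duplication, with a median of 0.027 there, were not in these bins. The nearest bin held 2 genes that were both low in reads and, in Ts1Rhr, on opposite sides of 0. Beyond 1 Mb no bin differed from 0 by more than 0.073 in either strain. Spearman's rho between fold change and distance across the 37 genes was -0.322 in Dp3Tyb and -0.0896 in Ts1Rhr, and without B230307C23Rik -0.265 and -0.0116. Genes of 1 library share its depth and are not independent, so these describe the list only.

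Differences between hearts with high and low mitochondrial read share were mostly larger in size than those between genotypes. The difference in mean log2 level between the 7 libraries over 10% and the other 13 had a median size of 0.185 over the 37 genes, against 0.0702 for the change in both strains, and was the larger of both values in 28 of 37. It ran from -0.51 in Slc5a3 to 0.83 in Smim11, with Scaf4 at 0.56 and Urb1 at -0.42. Of the 7 libraries 4 were WT and 3 were mutant, and 5 were of the Ts1Rhr cohort and 2 of the Dp3Tyb cohort. With the 4 groups as terms the median size was 0.193, larger than the genotype change in 29 of 37, and Smim11 was at 0.79 and Slc5a3 at -0.46. With the share as a term, or without these libraries, 0 of the 37 neighbours were called by limma in either strain.

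**Figure D5:**
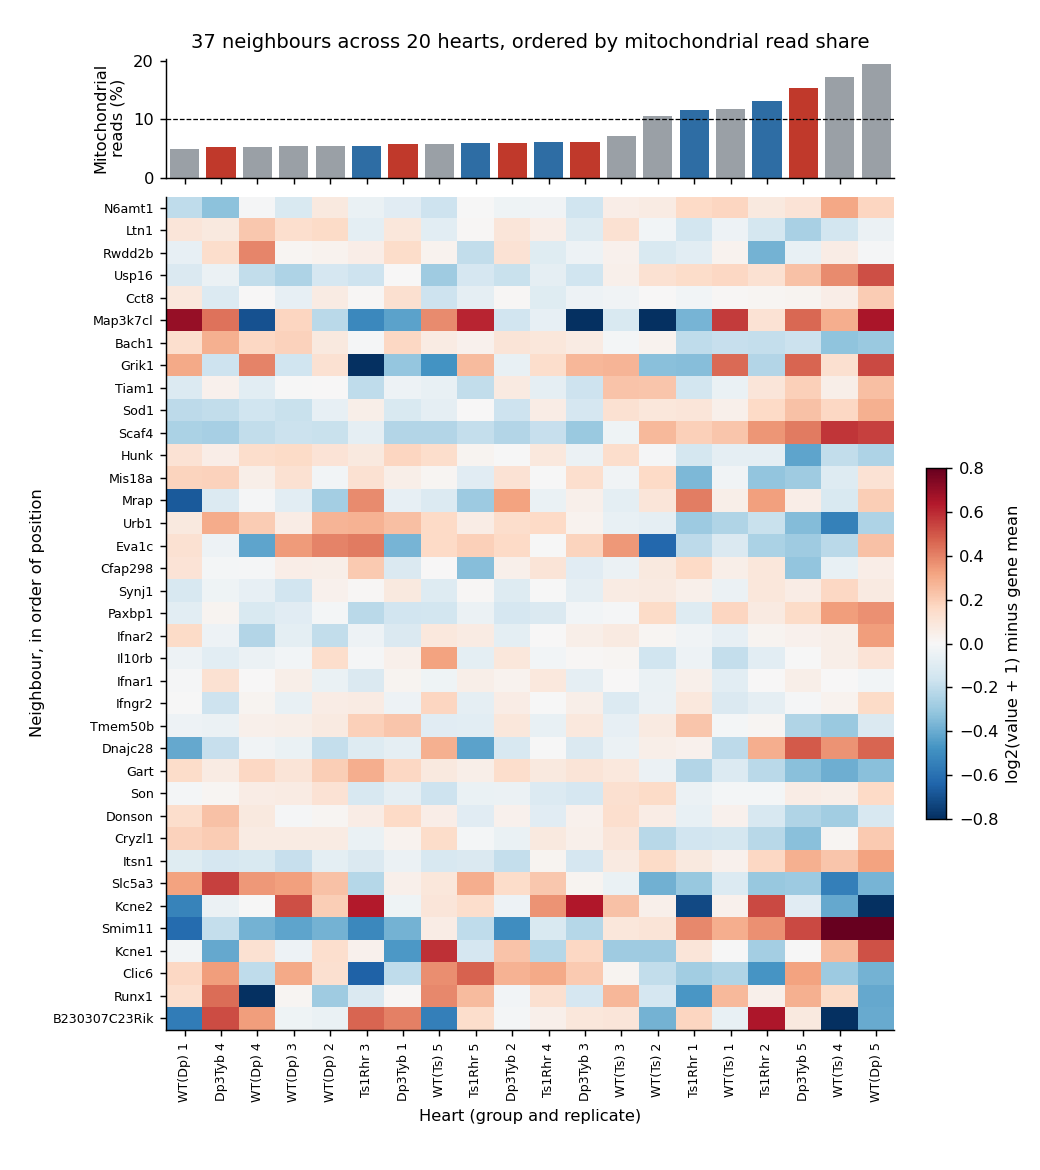
Upper panel: share of mitochondrially encoded reads (percent, bars from 0, grey for WT, red for Dp3Tyb, blue for Ts1Rhr) in 20 hearts ordered by that share, with a dashed line at 10%. Lower panel: log2(normalised read count + 1) minus the gene's mean for the 37 neighbours in order of position, with the colour scale ending at 0.8 in either direction. Smim11 and Scaf4 are higher (red) and Slc5a3 and Urb1 lower (blue) toward the right, without regard to genotype.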

How the data were processed

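The authors deposited 1 table of 48795 genes in 20 libraries, whose values are a normalised signal: reads divided by a DESeq2 size factor computed over all 20 libraries. Per the labels, Trimmomatic 0.36, STAR 2.5.2a, RSEM 1.2.31 and DESeq2 were used with GRCm38. The annotation and the use of strand are not given in the sources used here. Whole reads were recovered (100% of values within 0.001 of a whole number), which may be rounded RSEM estimates rather than counted reads. Positions came from GENCODE GRCm39 by gene identifier (91.3% matched), and promoters from RefSeq (GRCm38.p6).

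Each strain was compared with its own littermates with limma 3.58.1 (R 4.3.3) on log2(value + 1), trended and robust, 2-sided, with Benjamini-Hochberg adjustment over 15348 genes with a value of 10 or more in 5 or more libraries. DESeq2 1.42.0, edgeR 4.0.16, TMM scaling, pseudocounts of 0.1 and 5, other filters, terms for sex, mitochondrial share and lung markers, array weights and leaving out libraries were alternatives. Exact permutation tests used all 252 splits of 10 hearts and are 2-sided. A fold change on this scale understates that of low genes, and PCR copies are not independent molecules. Littermates may share a litter, which the labels do not give. Values in every heart are given for the 3 neighbours nearest each end, the 2 highest and 2 lowest in each strain, and the cytokine receptors. The members and lists were chosen with earlier results of these data known.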

Additional observations from a re-analysis of the deposited data

Results flagged for a closer look

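Among 48 groups of 5 hearts (12 named neighbours in 4 groups), 5 had 1 heart far from the other 4, where about 1 in 20 groups would by chance. Smim11 gave 3 of them: WT replicate 5 of the Dp3Tyb cohort stood at 452 (others 141 to 168), Dp3Tyb replicate 5 at 315 (others 154 to 190), and WT replicate 4 of the Ts1Rhr cohort at 452 (others 227 to 267). These 3 libraries had mitochondrial read shares of 19.5%, 15.5% and 17.2%, the highest of the 20. Kcne1 stood at 749 in WT replicate 5 of the Dp3Tyb cohort (others 511 to 576), which also held the fewest reads, 6.60 M. Clic6 stood at 36.6 in Dp3Tyb replicate 1 (others 49.2 to 53.6), a library with 17.0 M reads and a mitochondrial share of 5.80%. The part of depth or mitochondrial share in these values was not tested.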

How the results depend on the processing

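No neighbour was called in any contrast under any alternative run, apart from Son (1 neighbour, both strains, array weights). The counts of intervals that end below 0.585 stayed within 1.5 times their values. Of the 143 alternative values of counts and medians other than leaving out hearts, 4 moved by over 1.5 times for a count, or by over 0.041 for a median (the SD of library medians within groups): that count, the Ts1Rhr median with array weights (-0.012) and without overlapping members (0.022, 16 genes), and the median difference between strains without overlapping members (-0.050). Smaller shifts included a sign change of the Dp3Tyb median without libraries over 10% mitochondrial reads (0.0074), and a Ts1Rhr median of -0.015 with the lung marker term; the median difference between strains lay near 0 and turned with both (0.0055 and 0.017). The named neighbours that changed sign were called under neither setting; Grik1 and Mrap did so from -0.29 and 0.19. With array weights these were Clic6 (0.24), Map3k7cl (0.15) and Il10rb (0.021) in Ts1Rhr, Smim11 (0.071), Ifnar2 (0.080) and Il10rb (0.00803) in Dp3Tyb, and Ifnar2 (0.033), Ifngr2 (0.020) and Il10rb (0.0045) in both strains. Without libraries over 10% mitochondrial reads they were Smim11 (0.12), Ifnar2 (0.041) and Il10rb (0.0074) in Dp3Tyb, Ifngr2 (-0.036) in Ts1Rhr, and Clic6 (-0.023) and Ifnar2 (9.46e-05) in both. With a mitochondrial term Smim11 was at 0.033 in Dp3Tyb. With the lung marker term, added after seeing the data, they were Smim11 (0.088) and Il10rb (0.025) in Dp3Tyb, and Clic6 (0.20), Map3k7cl (0.29), Grik1 (0.13), Mrap (-0.0031) and Ifngr2 (-0.034) in Ts1Rhr. The cause was not tested.

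Leaving out 1 heart at a time called 0 neighbours. Ranges that crossed 0 were Clic6 -0.21 to 0.073 (Ts1Rhr), Ifnar2 -0.086 to 0.057 (Dp3Tyb), Ifnar2 -0.054 to 0.014 (both strains), Ifngr2 -0.012 to 0.061 (Ts1Rhr), Il10rb -0.036 to 0.011 (Dp3Tyb), Il10rb -0.10 to 0.024 (Ts1Rhr), Il10rb -0.058 to 0.0026 (both strains), Map3k7cl -0.32 to 0.042 (Ts1Rhr), Smim11 -0.18 to 0.29 (Dp3Tyb). B230307C23Rik stayed above 0, from 0.43 to 0.58 in both strains; over the other alternatives it ran from 0.28 to 0.54, with unadjusted p up to 0.0722 and adjusted p from 0.144 to 0.524. In Ts1Rhr alone those ran from 0.38 to 0.71, with unadjusted p up to 0.259, and in Dp3Tyb alone from 0.19 to 0.45. The other ranges within a strain, on 1 side of 0, were, in Dp3Tyb and Ts1Rhr, B230307C23Rik 0.26 to 0.48 and 0.52 to 0.78, Kcne1 -0.32 to -0.14 and -0.24 to -0.023, Runx1 0.25 to 0.49 and -0.30 to -0.11, Mrap 0.091 to 0.31 and 0.13 to 0.30, and Grik1 -0.31 to -0.11 and -0.43 to -0.052, Ifnar1 0.014 to 0.063 and 0.027 to 0.077; in Dp3Tyb, Clic6 0.089 to 0.28, Map3k7cl -0.44 to -0.042 and Ifngr2 -0.080 to -0.020; in Ts1Rhr, Smim11 -0.44 to -0.16 and Ifnar2 -0.050 to -0.012. Leaving out 1 replicate with a group of 4 remaining keeps the fit's pooled spread. No paired analysis was run, because the labels give no replicate numbers. Genes with few reads, such as Kcne2 and B230307C23Rik, could not be resolved at this depth.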
